A study of Ovis aries with 8 samples.

Results

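The genes described here encode the enzymes that place, keep and remove DNA methylation and the core subunits of Polycomb repression, measured in islets of sheep fetuses after norepinephrine and after diluent. They were chosen by symbol: the DNA methyltransferases DNMT1, DNMT3A and DNMT3B, the methylation reader UHRF1, the dioxygenases TET1, TET2 and TET3, and the Polycomb proteins EZH2, EED and BMI1. A gene's value was the row whose name equals its symbol, and 7 of the 10 genes had such a row among the 25000 rows of the expression table. EZH2 occurred in 1 row that joins it with the unnamed gene ENSOARG00000018841, so its value may hold reads of both. UHRF1 and BMI1 were not listed under their symbols and were not analysed here.

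DNA methylation is copied onto the new strand after replication by DNMT1, which UHRF1 guides to hemimethylated DNA, while DNMT3A and DNMT3B methylate sites that carried no mark before. TET enzymes oxidise methylcytosine and so open the way to its removal, using 2-oxoglutarate supplied in part by isocitrate dehydrogenases. Polycomb repressive complex 2, built around the methyltransferase EZH2 and its partner EED, methylates histone H3 at lysine 27, and BMI1 is a subunit of the Polycomb complex that ubiquitinates histone H2A. In mouse islets, Ezh2 and Bmi1 are known to keep the Cdkn2a locus silent in young beta cells, and their decline with age goes with less beta cell division.

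Pancreatic islets were isolated and hand-picked from singleton fetuses of Columbia-Rambouillet ewes near term. NE-Infused fetuses (n = 4) received norepinephrine bitartrate intravenously for 7 days, at 1 µg/min on day 1, 2 µg/min from day 2 to day 4 and 4 µg/min from day 5 to day 7. Saline-Control fetuses (n = 4) received the diluent, 0.9% saline holding 0.3% ascorbic acid. Norepinephrine fetuses were 138.25 ± 0.957 days and controls 139.75 ± 0.5 days of gestation (exact permutation test, two-sided p = 0.0857), and they weighed 3.125 ± 0.403 kg against 4.2 ± 0.589 kg (exact p = 0.0571, SD, n = 4 each). Norepinephrine fetus 3 and control fetus 2 were female and the other 6 fetuses male. Each fetus has its own number, age and weight in the labels, so replicates are separate animals.

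The values are FPKM, a count of sequenced fragments corrected for transcript length and library size, and ± gives the SD over animals. The animal numbers begin with 09 (norepinephrine 1, 3 and 4, control 2) or with 10 (norepinephrine 2, controls 1, 3 and 4), and the labels do not say what the prefix stands for. Summed FPKM was 768021 to 796149 in animals numbered 10 and 981583 to 1112624 in those numbered 09. Relative to control 1, steps of single fragments gave a depth of 0.648 for norepinephrine 1, 1.009 for norepinephrine 2, 0.726 for norepinephrine 3, 1.173 for control 3 and 1.084 for control 4. Depth is unknown for norepinephrine 4 and control 2, so no counting interval was computed. Of 10 islet endocrine markers 8 were listed, with a summed level of 10145 to 16179 FPKM after norepinephrine and 7391 to 12943 FPKM in controls. INS and NEUROD1, which also define islet endocrine cells, were not listed under their symbols. Of 10 acinar markers 6 were listed, and their summed level was 129 to 895 FPKM after norepinephrine against 109 to 147 FPKM in controls. Stromal markers (5 of 5 listed) summed to 206 to 1342 FPKM after norepinephrine and 306 to 551 FPKM in controls, duct markers (3 of 5) to 139 to 392 against 68.9 to 167 FPKM, and endothelial markers (4 of 5) to 62.6 to 141 against 95.6 to 125 FPKM. Leukocyte markers (5 of 5) summed to 142 to 232 FPKM after norepinephrine and 142 to 206 FPKM in controls, and erythroid markers (3 of 5) to at most 0.496 against 0.533 FPKM. In bulk RNA, fewer cells of a type and less RNA per cell cannot be told apart.

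DNMT3B carried the most abundant transcript of the group and the TET genes the least abundant. Mean levels per length over the 8 animals were 142 FPKM for DNMT3B, 27.4 for DNMT1, 20.9 for EED, 17.0 for DNMT3A, 15.5 for the EZH2 row, 8.70 for TET2, 1.99 for TET3 and 0.865 for TET1. The ranges over animals of DNMT1 and EED, of EED and DNMT3A, and of DNMT3A and the EZH2 row overlapped over the 8 animals. Within animals, DNMT1 was above EED in all 8, with a ratio of 1.05 to 1.58. DNMT3B stood above DNMT1, the EZH2 row above TET2, TET2 above TET3 and TET3 above TET1 with no overlap. The gap was small between TET3 (lowest 1.488 FPKM) and TET1 (highest 1.484 FPKM). It was also small between the EZH2 row (lowest 11.28 FPKM) and TET2 (highest 11.0 FPKM). Among the 13252 genes with a mean of at least 1 FPKM, DNMT3B lay at percentile 92.8, DNMT1 at 64.7, EED at 57.8, DNMT3A at 52.2, the EZH2 row at 49.6, TET2 at 34.6 and TET3 at 8.25.

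The place of DNMT3B in this order rests on a row that is longer than the gene. On the build Oar_v3.1 the row spans chromosome 13 from 61459737 to 61515972, which is 56236 bases, while RefSeq gives the gene 34332 bases on another assembly (ARS-UI_Ramb_v3.0). MAPRE1, a microtubule plus-end protein, is the next gene there. The table lists MAPRE1 only as a row of 807 bases on chromosome 1, at 0.129 to 0.827 FPKM. Whether fragments of MAPRE1 enter the DNMT3B value was not tested. The DNMT1 row is also longer than its gene, at 53279 bases against 43559 bases in RefSeq, between EIF3G and S1PR2. Whether it holds fragments of a neighbour was not tested. TET2 (chromosome 6, 20055989 to 20147275) shares its locus with ENSOARG00000000332, a row at 220, 211, 138 and 288 FPKM in norepinephrine fetuses 1 to 4 and at 33.1, 69.8, 125 and 177 FPKM in control fetuses 1 to 4. No source states whether strand was kept, and fragments of the overlapping pair may not be separable. The other rows lie on chromosome 5 from 12361126 to 12414404 (DNMT1), chromosome 3 from 32527970 to 32601832 (DNMT3A), chromosome 25 from 24736185 to 24856726 (TET1), chromosome 3 from 95739757 to 95843125 (TET3), chromosome 4 from 111375737 to 111409035 (EZH2 and the unnamed gene) and chromosome 21 from 8677260 to 8703282 (EED).

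The first comparison asked whether a week of norepinephrine changed these transcripts. None of them differed detectably: in all 7 genes and in the EZH2 row the norepinephrine and control values overlapped. Of all tested genes 4.23% had no overlap between the groups, so overlap is the usual case. DNMT1 averaged 25.7 ± 5.48 FPKM after norepinephrine and 29.2 ± 6.78 FPKM in controls, DNMT3A 17.2 ± 2.68 against 16.9 ± 2.58 FPKM, and DNMT3B 142.4 ± 18.5 against 142.2 ± 18.0 FPKM. EED averaged 19.9 ± 2.68 FPKM after norepinephrine and 21.8 ± 3.56 FPKM in controls. Genes were compared by limma on log2(FPKM + 1), a scale that understates changes of low genes, and called at a Benjamini-Hochberg adjusted p under 0.05 over the 13252 genes. It called 0 of the 6 genes that passed the abundance filter with a row of their own, where 0.0% of all tested genes were called. At an unadjusted p under 0.05 it gave 0 of these 6 genes and 975 of all genes (7.36%). TET1, below the filter, was not tested.

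DNMT1, the maintenance methyltransferase, measured 26.8, 31.5, 18.2 and 26.2 FPKM in norepinephrine fetuses 1 to 4, and 31.4, 19.1, 32.6 and 33.6 FPKM in control fetuses 1 to 4. The groups overlapped, and the lowest animal of each group was its female fetus. The log2 difference was -0.17 ± 0.219 (SE, 95% interval -0.665 to 0.322, limma adjusted p = 0.862).

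DNMT3A, the methyltransferase that silences immature metabolic genes in mouse beta cells, measured 14.9, 19.5, 19.4 and 14.8 FPKM in norepinephrine fetuses 1 to 4, and 19.7, 15.6, 18.3 and 14.1 FPKM in control fetuses 1 to 4. Both groups held high and low animals. Its log2 difference was 0.02 ± 0.158 (SE, 95% interval -0.337 to 0.376, limma adjusted p = 0.980).

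DNMT3B, the other de novo enzyme, measured 136, 121, 164 and 148 FPKM in norepinephrine fetuses 1 to 4, and 130, 166, 127 and 146 FPKM in control fetuses 1 to 4. Each group's highest value was that of its female fetus. The group means differed by 0.000789 ± 0.141 on the log2 scale (SE, 95% interval -0.317 to 0.319).

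**Figure D1:**
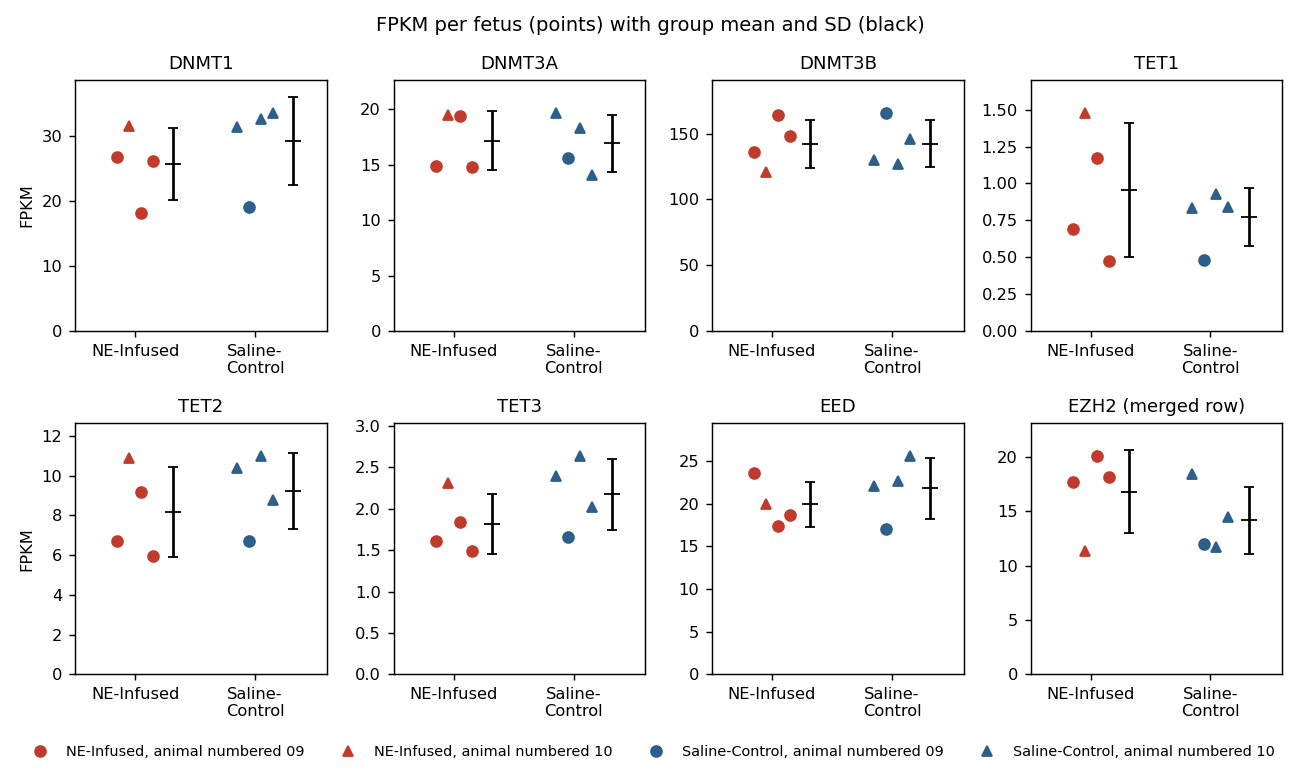
FPKM of each listed gene in each fetus, NE-Infused left and Saline-Control right in every panel, with circles for animals numbered 09, triangles for those numbered 10, and the group mean and SD in black. The groups overlapped in all 8 panels, as they did in all but 4.23% of tested genes, for example at 18.2 to 31.5 FPKM after norepinephrine and 19.1 to 33.6 FPKM in controls for DNMT1.

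TET2, the most abundant of the methylcytosine dioxygenases, measured 6.70, 10.9, 9.17 and 5.97 FPKM in norepinephrine fetuses 1 to 4, and 10.4, 6.73, 11.0 and 8.77 FPKM in control fetuses 1 to 4. The ranges overlapped nearly throughout. The log2 difference of TET2 was -0.16 ± 0.217 (SE, 95% interval -0.653 to 0.324, limma adjusted p = 0.867).

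TET3, the dioxygenase that acts on the paternal genome in the mouse zygote, measured 1.61, 2.31, 1.84 and 1.49 FPKM after norepinephrine, and 2.39, 1.66, 2.64 and 2.02 FPKM in controls. Its log2 difference was -0.18 ± 0.184 (SE, 95% interval -0.590 to 0.238, limma adjusted p = 0.827). Lower values appeared in animals of both groups.

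TET1, known for its high expression in embryonic stem cells, measured 0.694, 1.48, 1.17 and 0.477 FPKM after norepinephrine, and 0.831, 0.482, 0.930 and 0.843 FPKM in controls. The norepinephrine fetuses held both the highest and the lowest value. Its mean was 0.958 ± 0.456 FPKM after norepinephrine and 0.772 ± 0.198 FPKM in controls (exact permutation p = 0.543, SD, n = 4 each).

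The share of TET2 in the summed TET transcripts varied far less than their level. A share within an animal cancels library scaling and any shift common to the 3 genes. The shares of TET1 and TET3 were not computed. Summed FPKM of the 3 TET genes was 11.0 ± 3.09 after norepinephrine and 12.2 ± 2.51 in controls. TET2 made up 74.5%, 74.2%, 75.3% and 75.2% of that sum in norepinephrine fetuses 1 to 4, and 76.3%, 75.8%, 75.5% and 75.4% in control fetuses 1 to 4. The groups did not overlap, with means of 74.8% ± 0.533 against 75.7% ± 0.399. Over the 5 ratios and sums computed the adjusted p was 0.143 (exact permutation p = 0.0286, the smallest that 4 against 4 animals can give). A single separated ratio of 5 cannot reach a lower adjusted p, so it could not pass the threshold alone. The ratio of TET2 to TET3 was 4.48 ± 0.461 after norepinephrine and 4.22 ± 0.138 in controls, that of DNMT1 to DNMT3A 1.53 ± 0.402 against 1.75 ± 0.486, and that of DNMT1 to EED 1.29 ± 0.245 against 1.33 ± 0.148. These 3 ratios overlapped between groups, with adjusted p from 0.786 to 0.800 (exact permutation tests).

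EED, the Polycomb subunit that binds methylated lysine 27 and stimulates the enzyme, measured 23.6, 19.9, 17.4 and 18.7 FPKM in norepinephrine fetuses 1 to 4, and 22.0, 17.0, 22.6 and 25.6 FPKM in control fetuses 1 to 4. Each group's lowest value was again that of its female fetus. The log2 difference of EED was -0.12 ± 0.156 (SE, 95% interval -0.474 to 0.228, limma adjusted p = 0.861).

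The row that joins EZH2, the catalytic subunit, with the unnamed gene measured 17.7, 11.3, 20.1 and 18.1 FPKM in norepinephrine fetuses 1 to 4, and 18.4, 12.0, 11.7 and 14.5 FPKM in control fetuses 1 to 4. The norepinephrine group held the highest and the lowest value. The log2 difference was 0.23 ± 0.208 (SE, 95% interval -0.243 to 0.694, limma adjusted p = 0.802).

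Of the 6 tested genes, 2 lay above 0 and 4 below in log2 difference, with a median of -0.144 against 0.0169 over all tested genes. The 95% intervals of the 6 genes ran from 0.631-fold to 1.30-fold of FPKM + 1 with 4 animals a group. In a low gene such as TET3 the same bounds stand for larger changes of FPKM itself. Under equal FPKM totals the intervals reached lower, to -1.05 for DNMT1 and -1.02 for TET2 on the log2 scale. With the number prefix in the model they reached higher, to 1.41-fold of FPKM + 1. With gestational age as a covariate the TET2 difference was 0.409, not called. With the mean of the mitosis genes as a covariate the TET2 difference itself was -0.68, not called. That mean did not overlap between the groups, so this fit can hardly separate it from treatment.

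The sign of several differences turned when the number prefix entered the model. With the prefix as a covariate the difference of DNMT1 was 0.12, of TET2 0.10 and of DNMT3B -0.15, against -0.17, -0.16 and 0.00 without it. In that fit 3 of the 6 genes were above 0 and 3 below, and none was called. With the mean of the acinar markers as a covariate instead, DNMT1 was at 0.23, TET2 at 0.10 and the EZH2 row at -0.27, none called. Within animals numbered 09, norepinephrine minus control was 0.28 for DNMT1, 0.06 for DNMT3A, -0.15 for DNMT3B, 0.08 for TET2, -0.01 for TET3 and 0.20 for EED. Within animals numbered 10 the same differences were -0.05, 0.17, -0.15, 0.12, -0.01 and -0.23. Each of these within-prefix values rests on a single animal on one side. The EZH2 row differed by 0.60 among animals numbered 09 and by -0.35 among those numbered 10. This difference between prefixes was -0.95 ± 0.346 (SE, limma interaction term, unadjusted p = 0.0310, adjusted p = 0.848), in a test that called 0.121% of all genes and none of these.

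**Figure D2:**
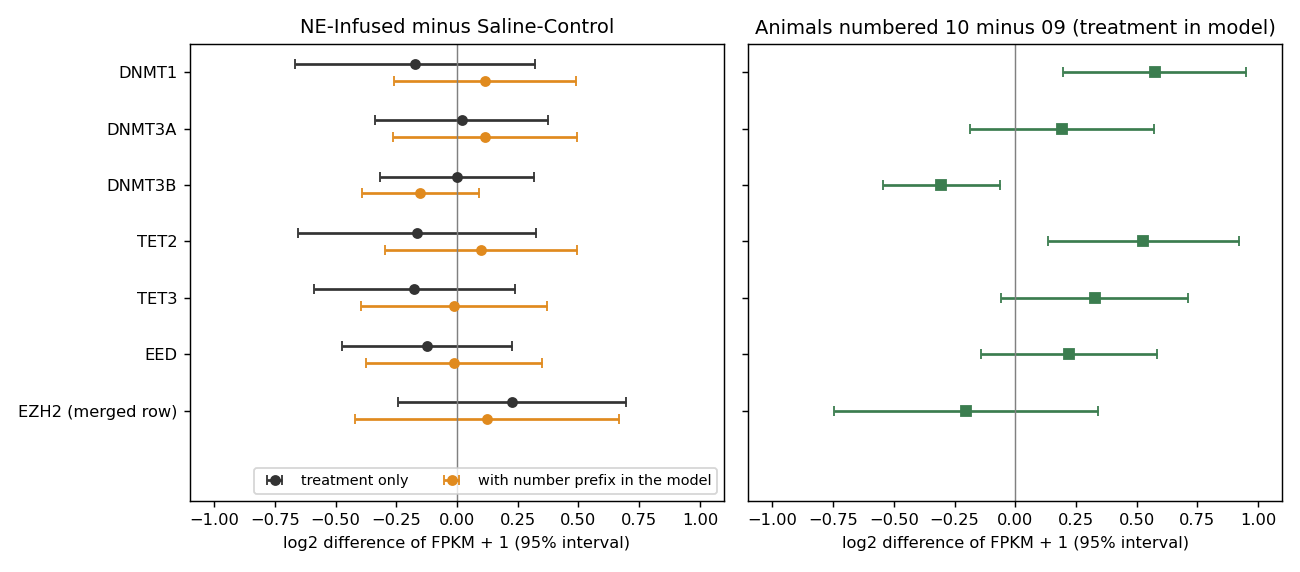
Log2 differences with 95% intervals for the 6 tested genes and the EZH2 row. Left, norepinephrine minus control without and with the number prefix in the model, all intervals crossing 0. Right, animals numbered 10 minus 09 with treatment in the model, where DNMT1 at 0.57 and TET2 at 0.53 lay highest and DNMT3B at -0.30 lowest.

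The second comparison set animals numbered 10 against animals numbered 09, with treatment in the model, because the prefix is uneven over the treatment groups. DNMT1 was higher in animals numbered 10, at 32.3 ± 1.06 FPKM against 22.6 ± 4.52 FPKM in those numbered 09 (SD, n = 4 each). Its 4 values in animals numbered 10 lay between 31.4 and 33.6 FPKM and its 4 values in those numbered 09 between 18.2 and 26.8 FPKM, with no overlap. The log2 difference was 0.57 ± 0.163 (SE, limma adjusted p = 0.0488). Both females are numbered 09, with DNMT1 at 18.2 and 19.1 FPKM, and the males numbered 09 were at 26.2 and 26.8 FPKM. Fetal sex was not in this model, and its part in the prefix difference was not tested. DNMT1 was the only call among the 6 genes, 16.7% of them, where 16.5% of all tested genes were called (6.06% higher and 10.4% lower in animals numbered 10). That share is near the background and is not a result about these enzymes.

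The DNMT1 call was fragile. It was lost in 6 of the 8 fits that each left out 1 animal, with log2 differences from 0.412 to 0.737 and limma adjusted p from 0.0395 to 0.383. Those 6 animals were norepinephrine 2 and 3 and controls 1 to 4. Without control 2, the number of genes called fell to 18, against 2187 with all animals.

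TET2 averaged 10.3 ± 1.04 FPKM in animals numbered 10 and 7.14 ± 1.40 FPKM in those numbered 09, which is 0.53 ± 0.170 higher on the log2 scale and was not called (SE, limma adjusted p = 0.0695). TET3 averaged 2.34 ± 0.253 FPKM in animals numbered 10 and 1.65 ± 0.146 FPKM in those numbered 09 with no overlap, and its log2 difference of 0.33 ± 0.166 was not called (SE, limma adjusted p = 0.204). DNMT3B averaged 130.9 ± 11.0 FPKM in animals numbered 10 against 153.7 ± 14.2 FPKM in those numbered 09, or -0.30 ± 0.105 on the log2 scale (SE, limma adjusted p = 0.0821). DNMT1 and TET3 were thus the tested genes without overlap between prefixes, where 25.4% of all genes had none. DNMT3A (0.19), EED (0.22) and the EZH2 row (-0.20) overlapped and missed the threshold. With all animals scaled to equal FPKM totals, 5 of the 6 genes were called and DNMT3B turned to 0.15. Under that scaling 4346 of all 13252 genes were called, 4109 of them higher in animals numbered 10. The median of all genes moved to 0.31, against -0.09 as deposited. Acinar markers summed to 109 to 147 FPKM in animals numbered 10 and 141 to 895 FPKM in those numbered 09, and their part in these differences was not tested.

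The third comparison asked whether DNMT1 and EZH2 followed cell division, since maintenance methylation and EZH2 are needed in dividing cells. None of the 4 relations tested passed the threshold. The mean log2(FPKM + 1) of 19 mitosis genes was 1.76 ± 0.191 after norepinephrine and 2.44 ± 0.152 in controls (SD, n = 4 each), with no overlap. This list was chosen with earlier results of these data known, so the values are a description. Of these genes 18 lay below 0 and 1 above, with 0 called by limma, 16 at an unadjusted p under 0.05 and a median of -0.66. MKI67, a marker of cycling cells, averaged 0.684 ± 0.153 FPKM after norepinephrine and 1.70 ± 0.233 FPKM in controls. UBE2C, which drives exit from mitosis, averaged 4.98 ± 2.43 against 14.6 ± 4.68 FPKM. TOP2A, which untangles chromosomes and shares its locus with RARA at 17.9 to 29.8 FPKM, averaged 2.39 ± 0.649 FPKM after norepinephrine and 5.88 ± 1.46 FPKM in controls.

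For genes of DNA replication, the mean over 19 S-phase genes was 3.90 ± 0.170 after norepinephrine and 3.99 ± 0.0655 in controls (SD, n = 4 each), with 5 genes above 0 and 14 below, 0 called by limma, 2 at an unadjusted p under 0.05 and a median of -0.06. PCNA, the replication clamp, averaged 92.5 ± 10.4 FPKM after norepinephrine and 100.5 ± 11.7 FPKM in controls, and RRM2, a ribonucleotide reductase subunit, 4.88 ± 1.59 against 7.98 ± 1.37 FPKM. CCNB1, CDK1 and MCM2 were not listed under their symbols.

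Because the mitosis means of the groups did not overlap, a correlation over all 8 animals carries the group difference, and values centred on group means are given first. Centred in this way, Pearson's r of DNMT1 was 0.295 with the mitosis mean (exact permutation p = 0.483) and 0.172 with the S-phase mean (p = 0.661). For the EZH2 row it was 0.241 with mitosis (exact permutation p = 0.641) and 0.321 with S phase (p = 0.484), and adjusted over the 4 relations all were at 0.661. Over all 8 animals DNMT1 gave r = 0.367 and Spearman's rho = 0.286 with mitosis (exact permutation p = 0.364 and 0.501, adjusted 0.703 and 0.935), and r = 0.253 and rho = 0.190 with S phase (p = 0.527 and 0.665, adjusted 0.703 and 0.935). The EZH2 row gave r = -0.259 and rho = -0.0476 with mitosis (exact permutation p = 0.520 and 0.935, adjusted 0.703 and 0.935), and r = 0.140 and rho = 0.167 with S phase (p = 0.733 and 0.703, adjusted 0.733 and 0.935).

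The relations turned with single animals. Without the 2 animals farthest from the median of the marker mean, norepinephrine 3 and control 1, r with mitosis was -0.235 for DNMT1 and -0.326 for the EZH2 row. Without norepinephrine 3 and 4, r with S phase was -0.00765 for DNMT1 and 0.354 for the EZH2 row. Centred on prefix means, r with mitosis was 0.0105 for DNMT1 and -0.0801 for the EZH2 row, and with S phase 0.397 and 0.176. A single group or prefix holds 4 animals, too few for a value of its own. With animals scaled to equal FPKM totals, DNMT1 and S phase gave r = 0.902 (exact permutation test, adjusted p = 0.0211), and that scaling moves both measures of an animal by the same factor. It was the only relation called under the settings that were tested. Values without 2 animals, centred on both group and prefix, or centred on group and replicate number carried no p-value.

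**Figure D3:**
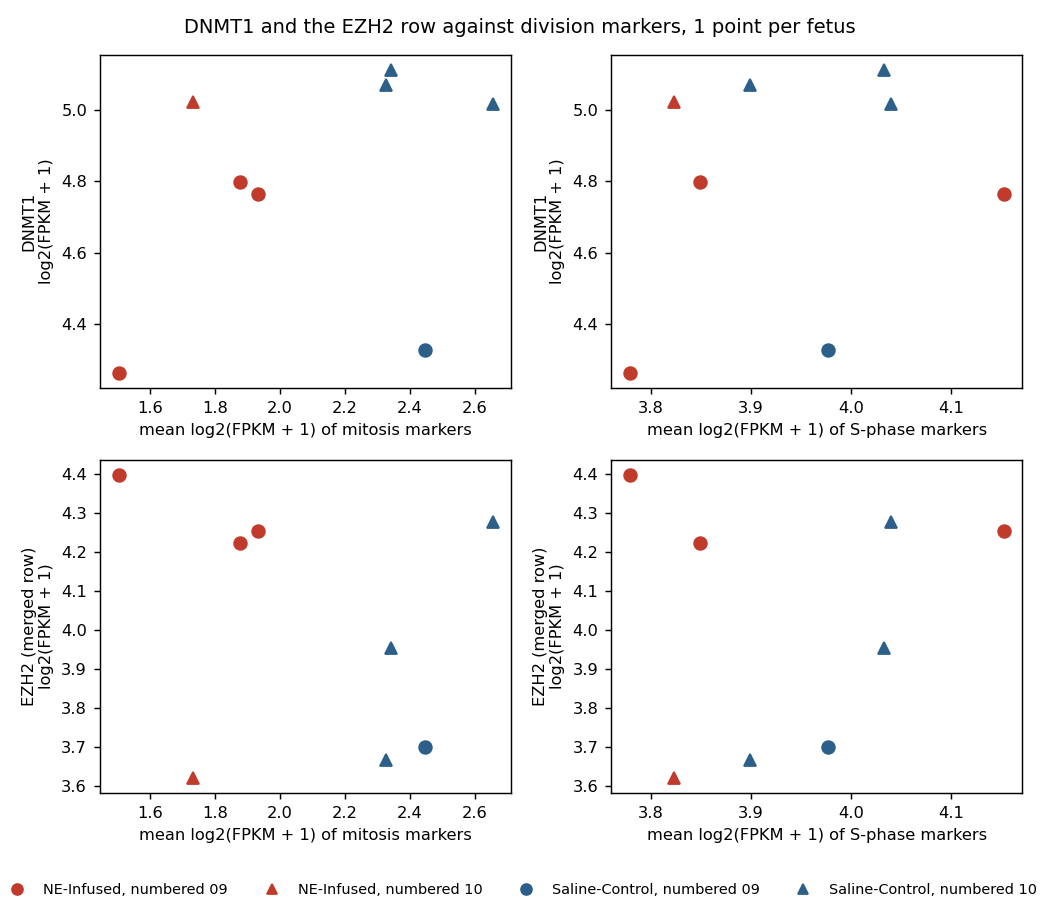
Log2(FPKM + 1) of DNMT1 and of the EZH2 row against the mean log2(FPKM + 1) of the mitosis genes and of the S-phase genes, 1 point per fetus, groups by colour and number prefix by symbol. The norepinephrine fetuses lie at 1.50 to 1.93 and the controls at 2.33 to 2.66 on the mitosis axis, while both groups span overlapping heights.

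A further comparison, chosen after the values were seen, set the 2 female fetuses against the 6 males. DNMT1 and EED were lowest and DNMT3B highest in the females, with no call at the threshold. DNMT1 measured 18.2 FPKM in the norepinephrine female and 19.1 FPKM in the control female, against 26.2 to 33.6 FPKM in males. EED measured 17.4 and 17.0 FPKM in the same females, against 18.7 to 25.6 FPKM in males. DNMT3B was higher, at 164 and 166 FPKM in females against 121 to 148 FPKM in males. The values of these 3 genes did not overlap between sexes, where 17.5% of all tested genes had no overlap.

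With treatment in the model, the log2 difference of females minus males was -0.67 ± 0.121 for DNMT1, -0.34 ± 0.138 for EED and 0.30 ± 0.125 for DNMT3B (SE). The limma adjusted p was 0.137, 0.259 and 0.268 in that order, so none was called, and 6 of 13252 genes were (0.0453%). At an unadjusted p under 0.05 there were 3 of the 6 tested genes and 18.2% of all genes. Both females are numbered 09. Under equal FPKM totals DNMT3B was at -0.01, DNMT1 at -0.963 and EED at -0.631. Leaving out an animal could not turn the sign of DNMT1 or EED, since both females lay below every male. With the prefix also in the model, DNMT1 was at -0.51 ± 0.118 (limma adjusted p = 0.231), EED at -0.34 ± 0.175 and DNMT3B at 0.17 ± 0.131 (SE). The males numbered 09 had DNMT1 at 26.2 and 26.8 FPKM, which is part of the range of all males and no separate test. TET2, TET3, DNMT3A and the EZH2 row overlapped between sexes.

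KDM6A, a lysine 27 demethylase that is X-linked and escapes X inactivation in human and mouse, measured 12.3 to 14.6 FPKM in females and 9.83 to 13.3 FPKM in males, with overlap.

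The genes whose levels followed DNMT1 most closely over the 8 animals were TANGO6 (Pearson r = 0.984), PPWD1 (0.984) and TRIM23 (0.982). TANGO6 measured 4.99, 5.91, 3.22 and 4.72 FPKM in norepinephrine fetuses 1 to 4, and 5.61, 3.75, 6.45 and 6.66 FPKM in control fetuses 1 to 4, low in the same female animals as DNMT1. For the EZH2 row they were the small RNA U3 (0.936), ENSOARG00000000114 (0.914) and ENSOARG00000005814 (0.909). U3 was near the floor in several animals, at 3.0, 0.0, 11.8 and 7.08 FPKM in norepinephrine fetuses 1 to 4. In control fetuses 1 to 4 it was at 2.08, 0.0, 0.0 and 0.949 FPKM. All these genes were picked as the highest among 13252 genes and carry no test.

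Genes that work with these enzymes gave the same picture after norepinephrine. Of 77 partners in 6 lists, 64 were listed and 63 tested, with 33 above 0, 30 below and 0 called by limma. At an unadjusted p under 0.05 there were 3 (4.76%, where 7.36% of all genes reached it): IDH1, YAF2 and IGF1R. IDH1, an isocitrate dehydrogenase, averaged 24.0 ± 4.32 FPKM after norepinephrine and 18.2 ± 2.74 FPKM in controls (0.37 ± 0.166 log2, SE, limma adjusted p = 0.666). YAF2, a Polycomb complex 1 subunit, averaged 38.5 ± 4.38 against 29.2 ± 1.50 FPKM (0.38 ± 0.117, adjusted p = 0.544). IGF1R, the receptor of insulin-like growth factor 1, averaged 21.0 ± 2.66 FPKM after norepinephrine and 15.5 ± 2.28 FPKM in controls (0.42 ± 0.148, adjusted p = 0.593).

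Among 12 tested genes of methylation maintenance and reading, 8 lay above 0 and 4 below, with a median of 0.05. MBD2, a reader of methylated DNA, averaged 164 ± 18.5 FPKM after norepinephrine and 185 ± 11.3 FPKM in controls, and USP7, a deubiquitinase that binds DNMT1, 98.9 ± 10.4 against 87.0 ± 7.79 FPKM. The largest differences of the list were -0.42 in ZBTB33 and -0.35 in ZBTB38, both zinc-finger readers of methylated DNA. With the prefix in the model these were -0.11 and 0.02.

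Among 10 tested genes of demethylation and TET cofactors, 7 lay above 0 and 3 below, with a median of 0.08. GADD45A, a stress-induced adaptor linked to demethylation, measured 184, 132, 297 and 211 FPKM in norepinephrine fetuses 1 to 4, and 130, 382, 104 and 105 FPKM in control fetuses 1 to 4. It was high in all animals numbered 09 and lower in all numbered 10. IDH2, the mitochondrial isocitrate dehydrogenase, averaged 126 ± 17.3 FPKM after norepinephrine and 122 ± 24.8 FPKM in controls. GADD45B averaged 15.1 ± 10.0 against 10.1 ± 2.96 FPKM, and norepinephrine 4 alone reached 29.7 FPKM.

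Among 9 tested partners of Polycomb complex 2, 4 lay above 0 and 5 below, with a median of -0.00348. RBBP4, a histone-binding subunit, averaged 74.1 ± 9.76 FPKM after norepinephrine and 66.5 ± 4.87 FPKM in controls, and AEBP2, an accessory subunit, 39.4 ± 3.89 against 43.6 ± 4.64 FPKM. EZH1, the paralogue of EZH2 found in resting cells, measured 6.25, 10.0, 4.12 and 5.97 FPKM in norepinephrine fetuses 1 to 4, and 10.6, 4.67, 9.55 and 9.81 FPKM in control fetuses 1 to 4. It lay below the EZH2 row in every animal. PHF19, another accessory subunit, averaged 2.41 ± 1.17 FPKM after norepinephrine and 2.78 ± 0.554 FPKM in controls.

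**Figure D4:**
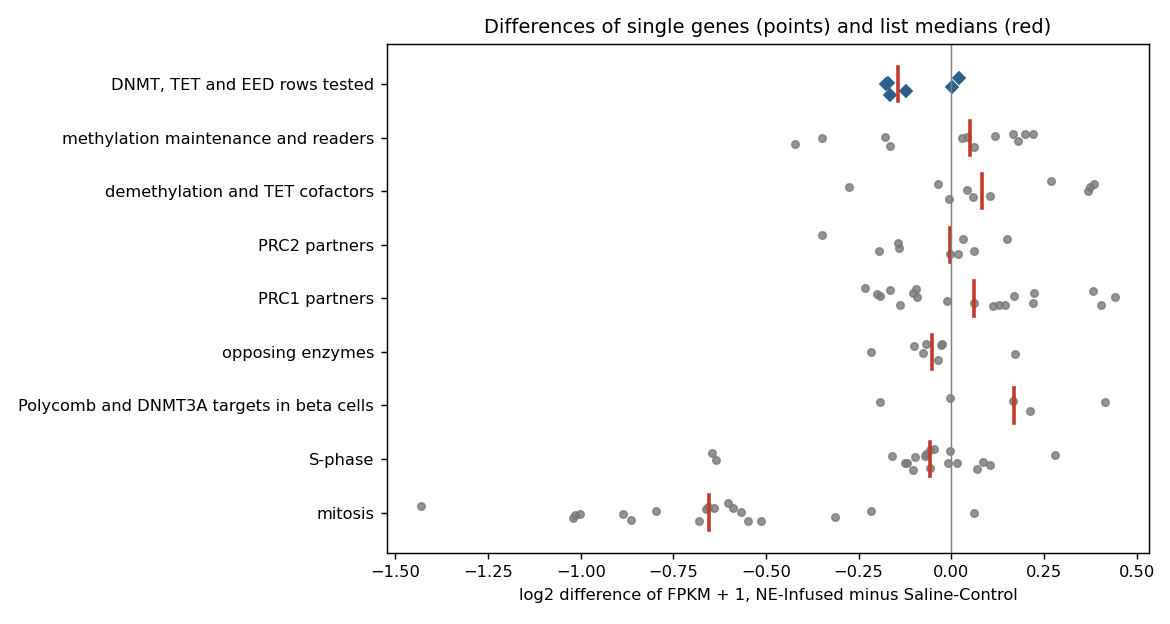
Log2 differences of FPKM + 1, norepinephrine minus control, 1 point per tested gene and a red bar at each median, for the 6 tested enzymes (top), the 6 partner lists, and the S-phase and mitosis genes (bottom). The enzymes and partner lists have medians near 0, at -0.14 to 0.17, while the mitosis genes have a median of -0.66.

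Among 19 tested partners of Polycomb complex 1, 10 lay above 0 and 9 below, with a median of 0.06. PHC2, a polyhomeotic subunit, averaged 80.4 ± 7.31 FPKM after norepinephrine and 85.6 ± 7.19 FPKM in controls, and PCGF3, a paralogue of BMI1, 74.0 ± 5.71 against 71.1 ± 8.95 FPKM. PCGF5, another such paralogue, gave the largest difference of the list, at 0.44 ± 0.252 (SE, limma adjusted p = 0.715).

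Among 8 tested enzymes that oppose Polycomb, 1 lay above 0 and 7 below, with a median of -0.05. BAP1, the H2A deubiquitinase, averaged 89.7 ± 7.63 FPKM after norepinephrine and 91.7 ± 12.9 FPKM in controls, and KDM6B, a lysine 27 demethylase, 27.1 ± 5.04 against 28.4 ± 3.64 FPKM. ASXL2 and ASXL1, cofactors of BAP1, differed by -0.22 and 0.17.

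A last list held genes named in work on Polycomb or Dnmt3a in beta cells, of which 5 of 9 were listed and tested, 3 above 0 and 2 below. CDKN2A, CDKN2B and CDKN1C, the cell cycle inhibitors of that list, were not listed under their symbols, so the best known Polycomb target of ageing beta cells was not analysed here. LDHA, a glycolytic enzyme silenced in mature beta cells, measured 50.8, 36.9, 110 and 105 FPKM in norepinephrine fetuses 1 to 4, and 40.2, 115, 48.9 and 52.7 FPKM in control fetuses 1 to 4. PDGFRB, also a stromal marker, averaged 54.3 ± 44.7 FPKM after norepinephrine and 50.7 ± 18.2 FPKM in controls. With equal FPKM totals, which moved the median of all genes to -0.12, the list medians were below 0 in all lists but this one, where it was 0.02.

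Between prefixes, 14 of the 63 partners were called (22.2%, against 16.5% of all genes), 7 higher and 7 lower in animals numbered 10. Those higher in animals numbered 10 were ZBTB38, TDG, SUZ12, EZH1, PHC3, RYBP and ASXL2, and those lower were UNG, GADD45A, IDH2, PHF1, RING1, BAP1 and LDHA. EZH1 differed by 0.87 (limma adjusted p = 0.0168), ASXL2 by 0.84 (0.0118), GADD45A by -1.27 (0.0197) and LDHA by -1.22 (0.0278). Without control 2 the same comparison called 18 of the 13252 genes, against 2187 with all animals. The partner calls were not followed in that fit.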

How the data were processed

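RNA from hand-picked islets of 8 fetuses (4 a group) was sequenced as paired 100 bp reads after mRNA selection, per the labels' protocols. The submitters' processing notes list TopHat2 2.0.1, Cufflinks 2.1.1, Cuffdiff and Oar_v3.1. The authors deposited 1 FPKM value per gene and animal, per the file headers, and no counts. Their annotation and filters: not given in the sources used here.

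From these values log2(FPKM + 1) was computed for the 13252 rows with a mean of at least 1 FPKM. Tests used limma 3.58.1 under R 4.3.3 (eBayes with trend, two-sided, Benjamini-Hochberg over all tested genes, threshold 0.05). Single values used exact permutation tests. Merged rows (165) were not assigned, except that the EZH2 row is shown as merged. The test was checked on artificial data with known changes.

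The members, partner lists and division lists were chosen with earlier results of these data known. Named were all members, and of each partner list the 2 tested genes with the highest mean and the 2 with the largest absolute difference. A gene taken by this rule is not reported here. MKI67, TOP2A, UBE2C, PCNA, RRM2, CDK1, CCNB1 and MCM2 were named among division genes, and for DNMT1 and the EZH2 row the 3 genes most like each. Other partners named for an unadjusted p or a call between prefixes were chosen after their values were seen. Relations numbered 4, since UHRF1 was not analysed. Alternatives changed the pseudocount, filter, scaling, covariates, variance trend and replicate block, and left out each animal in turn. ARS-UI_Ramb_v3.0 served for names, neighbours and gene spans only.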

Additional observations from a re-analysis of the deposited data

Results flagged for a closer look

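Among 40 groups of 4 values examined for an animal far from the others, 3 had a gap over range above Dixon's critical value of 0.829, and chance flags about 5% of such groups. DNMT1 in control 2, at 19.1 FPKM, was far below the other controls (gap over range 0.846). DNMT3A in norepinephrine 3, at 19.4 FPKM, was far above the other animals numbered 09 (0.835). TET1 in norepinephrine 2, at 1.48 FPKM, was far above the other animals numbered 10 (0.848).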

How the results depend on the processing

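No member was called after norepinephrine under any of the 21 alternatives. Genes called numbered 0, with 1 (NNAT, neuronatin, named after its values were seen) under equal FPKM totals and 1 (NNAT again) with the prefix as covariate, and 0 to 2 leaving out 1 animal at a time. At an unadjusted p under 0.05 there were 595 (without control 3) to 2201 (without control 2) genes leaving out an animal, 551 with the mitosis mean and 569 with the acinar mean as covariate. Between prefixes, equal totals gave 4346 genes called, and leaving out an animal gave 18 (without control 2) to 2280. Members called there were 5 under equal totals, 0 with no filter, 0 without a variance trend and 0 to 1 leaving out an animal.

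Log2 differences of norepinephrine minus control turned sign as follows. With the prefix as covariate they were 0.116 for DNMT1, -0.151 for DNMT3B and 0.0997 for TET2. With equal totals they were -0.126 for DNMT3A and -0.153 for DNMT3B. With gestational age as covariate they were -0.131 for DNMT3B, 0.409 for TET2 and 0.115 for TET3. With the acinar mean they were 0.225 for DNMT1, -0.234 for DNMT3B, 0.0995 for TET2, 0.012 for TET3 and -0.272 for the EZH2 row. With the mitosis mean, which did not overlap between the groups, they were 0.231 for DNMT1, -0.164 for DNMT3A, -0.211 for DNMT3B and 0.00849 for EED. Leaving out an animal, DNMT3A ran from -0.0601 to 0.0939 and DNMT3B from -0.0708 to 0.0773. Between prefixes, equal totals gave 0.146 for DNMT3B and 0.218 for the EZH2 row, which ran from -0.676 to 0.272 leaving out an animal.

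Between females and males, genes called numbered 12 with no filter, 1 with a mean of at least 5 FPKM and 4 to 19 leaving out an animal, and 0 members were called throughout. Females minus males turned sign under equal totals in DNMT3A (-0.241), DNMT3B (-0.0127) and the EZH2 row (-0.242), and with the prefix as covariate in TET2 (0.390), TET3 (0.125) and the EZH2 row (-0.158). Leaving out an animal it ran from -0.136 to 0.242 in DNMT3A, -0.509 to 0.238 in TET2, -0.327 to 0.0299 in TET3 and -0.272 to 0.367 in the EZH2 row.

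Pearson's r of DNMT1 with mitosis was 0.630 centred on group and prefix, an alternative added after the data were seen, and -0.0424 to 0.733 leaving out an animal. DNMT1 with S phase gave 0.902 under equal totals, 0.580 centred on group and prefix, and -0.126 to 0.402 leaving out an animal. The EZH2 row with mitosis gave 0.119 under equal totals, 0.241 centred on group, 0.233 centred on group and prefix, and -0.578 to 0.0607 leaving out an animal. With S phase it ran from -0.0886 to 0.535 leaving out an animal. The cause of these shifts was not tested.

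Replicate numbers belong to different animals. Deviations of same-numbered animals correlated at -0.156, -0.381, -0.0344 and 0.0932. Each same-numbered pair joined animals of different number prefixes, which can lower these values whether or not the animals were paired. These correlations therefore cannot show whether the numbers paired the animals. With the replicate block limma called 0 genes (646 at an unadjusted p under 0.05), and r of DNMT1 was 0.0507 with mitosis and -0.260 with S phase.
Promoter motifs were not run.
The data hold 4 animals a group, unevenly spread over the number prefixes, with depth known only in relative terms for 6 of 8 animals. DNMT3B, TET2 and the EZH2 row may hold reads of other genes, and the DNMT1 row is also longer than its RefSeq gene.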
